A study of Mus musculus with 8 samples.

Results

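The unfolded protein response is run by 3 sensors in the membrane of the endoplasmic reticulum (ER), and this account follows the messages of 10 genes that carry it in mouse hematopoietic stem cells (HSCs). They were chosen by symbol: Ern1 and Xbp1 for the IRE1 arm, Atf6, Atf6b, Mbtps1 and Mbtps2 for the ATF6 arm, and Eif2ak3, Atf4, Ddit3 and Ppp1r15a for the PERK arm. All 10 were found among the 22065 named genes of the count table, and all 10 passed the filter on low counts that left 16444 genes for testing. The study asked by RNA-seq what loss of the mitochondrial ubiquitin ligase MITOL (gene Marchf5, here called Mitol) does to HSCs, and compared 4 knockout with 4 control libraries. Both groups were C57BL/6 mice of 8 to 10 weeks that carried Mitol Flox/Flox alleles and had received Poly:IC, a double-stranded RNA mimic that provokes interferon. The knockout group (MitolΔ/Δ, marked Mitol KO in the plots) also carried MX1-cre, a recombinase under an interferon-inducible promoter that acts in blood cells and in other responsive tissues, and the control group had no cre. Each library was made from 100 sorted bone marrow cells of the CD150+ CD48- EPCR+ Lineage- gate, 1 week after Poly:IC.

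Each sensor reads misfolded protein in the ER lumen and sends its own signal. IRE1 (Ern1) is a kinase and nuclease that cuts a short intron out of Xbp1 mRNA in the cytoplasm, after which the message encodes the active transcription factor XBP1s. ATF6 and its relative ATF6B travel to the Golgi, where the proteases S1P (Mbtps1) and S2P (Mbtps2) release their transcription factor domains. PERK (Eif2ak3) phosphorylates eIF2 and slows translation, which favours translation of ATF4, then of CHOP (Ddit3), while GADD34 (Ppp1r15a) guides a phosphatase back to eIF2. Much of this signalling happens on protein, so a message count shows how much template a cell holds and not whether the sensor is active.

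The stretch of Xbp1 that IRE1 cuts is shown because gene counts cannot see the cut. It lies at chr11:5474248-5474333 of GRCm39, plus strand, inside an Xbp1 exon, and the capitals mark the 26-base intron at chr11:5474278-5474303 as annotated in the transcript Xbp1-205.
Xbp1 intron cut by IRE1: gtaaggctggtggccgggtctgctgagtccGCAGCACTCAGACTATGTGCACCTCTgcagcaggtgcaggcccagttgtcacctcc
Of 24 annotated Xbp1 transcripts, 1 lacks these bases and 19 keep them. The first 6 bases of the marked intron recur just after it, so the intron can be placed up to 6 bases further right with the same product. Its length is not a multiple of 3, so removal shifts the reading frame. Reads of both forms were summed in the Xbp1 count, and the spliced share was not analysed here.

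The libraries held between 7214935 and 12398138 counts in named genes. Counts for Marchf5 did not mark the knockout: the normalized count was 232 to 308 in MitolΔ/Δ and 262 to 333 in control libraries, and a gene total does not separate deleted from kept exons. The HSC markers were present in all 8 libraries, although Kit (normalized count 6061 to 8386 in MitolΔ/Δ against 10221 to 13429 in control libraries) and Hlf (4609 to 5968 against 8459 to 10810) fell. Summed cycling genes were higher in every MitolΔ/Δ library (9141 to 19973 against 6299 to 8745, with 10 of 12 genes called higher), and so was Cd48, which the gate selects against (22.2 to 63.4 against 4.49 to 21.7). Summed T and NK cell markers were also higher without overlap (260 to 425 against 170 to 228), with 4 of 8 markers found. Nkg7 alone was called by edgeR, and its mean was 252 of a mean sum of 350 in MitolΔ/Δ and 121 of 201 in control libraries. Of the other tested markers, Cd4 was below 0 (log2 -0.60) and Klrb1c above 0 (0.93). Among megakaryocyte markers 2 of 5 tested genes, Pf4 and F2rl2, fell and 0 rose by edgeR, beside 3.75% called lower over all tested genes. The summed megakaryocyte markers overlapped (2465 to 5201 against 3276 to 4939), with means of 3857 in MitolΔ/Δ and 3807 in control libraries. Few markers of the remaining types could be tested (2 of 10 for neutrophils, 3 of 8 for monocytes, 1 of 8 for mast cells and 3 of 8 for red cells). Of these edgeR called 0, with 4 at an unadjusted p under 0.05, while DESeq2, which filters genes differently, called Prtn3 and Itgam higher and S100a8 lower in MitolΔ/Δ, and S100a9 was at 0 in every MitolΔ/Δ library and at 2.64 to 21.3 in control libraries. The part of these differences in the results below was not tested. In such bulk samples, fewer cells of a type and less RNA per cell cannot be told apart. The labels do not say whether replicates came from separate animals, so p-values measure the spread between these libraries.

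Of the 10 genes, Xbp1 rose and Ern1 fell, and the other 8 did not pass the test. Over all tested genes, 8.43% were called by edgeR's quasi-likelihood test at an adjusted p under 0.05, 4.68% higher and 3.75% lower. The median log2 fold change of the 10 genes was -0.05, beside -0.02 over all genes tested, and 4 of the 10 were above 0, beside 47.7% of all genes. The groups did not overlap for Atf6, which was higher in MitolΔ/Δ, and for Ern1, which was lower, while 15.4% of all tested genes had groups that did not overlap, 8.17% higher and 7.18% lower in MitolΔ/Δ. By DESeq2 Xbp1 and Ern1 were also the members called, and 14% of all genes it tested were.

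**Figure D1:**
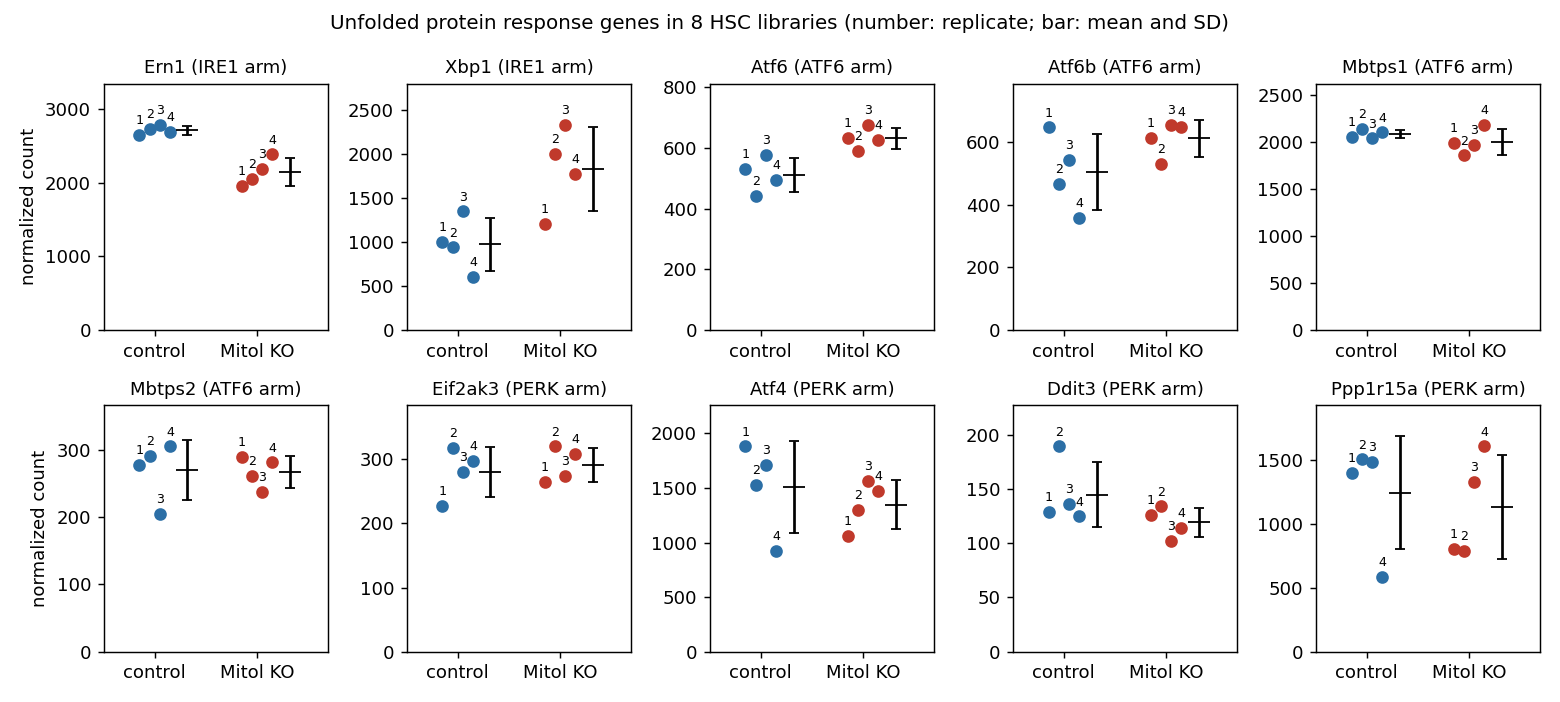
Normalized counts (vertical axes, each starting at 0) of the 10 genes in the 4 control and 4 Mitol KO libraries, with replicate numbers beside the points and the mean and SD as a bar. Ern1 and Atf6 are the genes whose groups do not overlap, and control replicate 4 is the lowest library for Xbp1, Atf6b, Atf4 and Ppp1r15a.

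Per kilobase of merged exon, averaged over the 8 libraries, Atf4 was the most abundant (normalized count per kilobase 602, range 388 to 792) and Ppp1r15a came next (404, range 199.7 to 547). Ern1 (240), Xbp1 (202), Mbtps1 (172) and Atf6b (167) followed, and the library ranges of neighbours in this order overlapped. All 4 libraries of each group put Atf6 lower than any of these (45.2 to 69.0), near Eif2ak3 (35.7 to 50.4). Ddit3 (18.4 to 33.9) and Mbtps2 (16.8 to 25.0) lay lowest and overlapped each other. This order depends on the length used: with the exons of the canonical transcript, a length chosen after the data were seen, Xbp1 moved to the second place (712) and Ern1 to the fifth (347), and Mbtps2 (104) and Ddit3 (122) moved above Atf6 (75.8) and Eif2ak3 (62.8).

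In the IRE1 arm the sensor and its substrate moved in opposite directions. Ern1 (chr11:106283818-106378686, minus strand) had normalized counts of 1953, 2052, 2186 and 2383 in MitolΔ/Δ and 2647, 2724, 2786 and 2684 in control libraries. Every MitolΔ/Δ library was below every control. The control values lay close together (2710 ± 59.7, SD, n = 4), and the MitolΔ/Δ values spread more widely (2143 ± 186, SD, n = 4). Ern1 fell by 0.36 on the log2 scale (SE 0.084, 95% interval -0.54 to -0.18, adjusted p = 0.0264 by edgeR's quasi-likelihood test).

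Xbp1 (chr11:5470606-5483027, plus strand) had normalized counts of 1208, 2006, 2335 and 1772 in MitolΔ/Δ and 1001, 940, 1348 and 603 in control libraries. The groups overlapped, since MitolΔ/Δ replicate 1 was below control replicate 3, while the other 3 MitolΔ/Δ libraries were above every control. The mean was 1830 ± 475 in MitolΔ/Δ against 973 ± 305 in control (SD, n = 4 each). Xbp1 rose 1.86-fold (log2 0.90, SE 0.23, 95% interval 0.40 to 1.39, adjusted p = 0.0346 by edgeR). In a two-sided exact permutation test on the normalized counts, run for each of the 10 genes, p was 0.0286 for Ern1, the smallest that 4 against 4 allows, and 0.0571 for Xbp1.

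Both calls held in all 6 alternative fits to the 8 libraries and were fragile to the loss of a library. The Ern1 call was lost without MitolΔ/Δ replicate 1, 2 or 3 (adjusted p = 0.0757, 0.0786 and 0.0614) and without control replicate 2, 3 or 4 (0.0764, 0.0648 and 0.0591). The Xbp1 call was lost without MitolΔ/Δ replicate 2 or 3 (adjusted p = 0.0848 and 0.0876) and without control replicate 1, 2 or 4 (0.0565, 0.0928 and 0.0792), at log2 fold changes of 0.72 to 0.92. Xbp1 is abundant in plasma cells, and summed plasma and B cell markers were 241 to 411 in MitolΔ/Δ against 284 to 372 in control libraries, so that the groups overlapped. Of 14 such markers 4 were tested, and 0 were called by edgeR. Ighm and Mzb1 were at 8.51 normalized counts or less in every library. Among those tested, the plasma cell marker Sdc1 was above 0, as Xbp1 was (log2 0.93, adjusted p = 0.0586 by edgeR and 0.016 by DESeq2). It was at 235, 179, 90.6 and 124 in MitolΔ/Δ and 100.2, 83.0, 83.8 and 60.2 in control libraries. The other tested markers were below 0: Cd79b (log2 -0.36), Prdm1 (-1.58) and Irf4 (-0.25), with adjusted p = 0.194, 0.105 and 0.794 by edgeR. The part of such cells in the Xbp1 values was not tested.

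Set against each other within a library, the Xbp1 and Ern1 counts separated the groups. The log2 ratio of Xbp1 to Ern1 was -0.69, -0.03, 0.10 and -0.43 in MitolΔ/Δ and -1.40, -1.54, -1.05 and -2.15 in control libraries. Every MitolΔ/Δ ratio was above every control ratio, and the means differed by 1.27. Each ratio is taken inside 1 library and so does not change with scaling. The pair was followed because its members were already known to move apart, so the ratio is a description with no test.

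**Figure D2:**
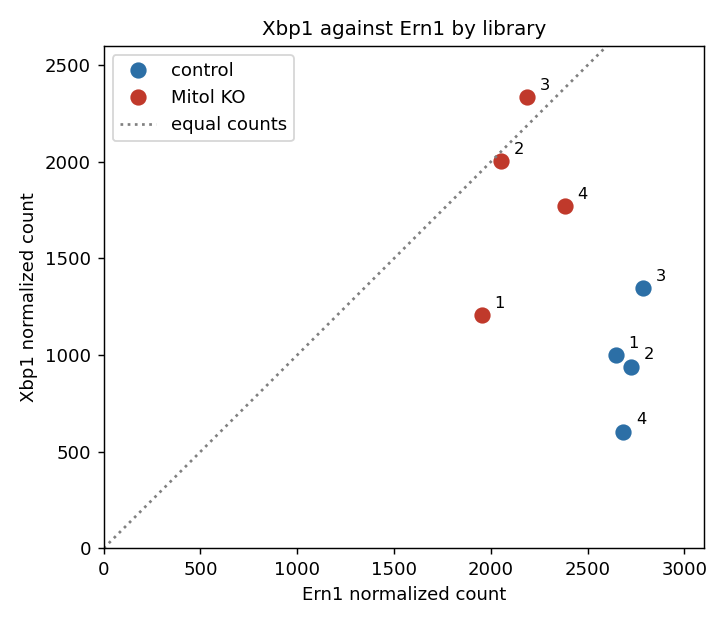
Normalized counts of Xbp1 (vertical axis) against Ern1 (horizontal axis) in each library, numbered by replicate, with a dotted line where the counts are equal. The 4 Mitol KO libraries lie to the left, at 1953 to 2383 for Ern1, and Mitol KO replicate 3 lies above the line.

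Of the genes that act on or with IRE1, none passed the test by edgeR, which called 8.43% of all tested genes. The list holds the ligase that joins the cut Xbp1 ends (Rtcb and its partners), adaptors and kinases downstream of IRE1, and proteins that hold or turn over the sensor. Of 16 genes 15 were tested, 0 were called by edgeR and 1 by DESeq2, which called 14% of all genes it tested. By edgeR 3 had an unadjusted p under 0.05, beside 4336 of all 16444 tested genes. Rtcb had a log2 fold change of 0.16 (95% interval -0.06 to 0.38), and Hspa5, the chaperone BiP that binds the sensors, 0.12 (-0.45 to 0.69). The second IRE1 gene, Ern2, which is known from gut epithelium, was at 0.783 to 6.23 normalized counts in MitolΔ/Δ and 1.06 to 1.88 in control libraries and was not tested. The median log2 fold change of the list was 0.12, beside -0.02 over all genes tested, and 13 of 15 were above 0, beside 47.7%.

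Of genes known as XBP1 targets, 29 of 30 were tested, and by edgeR 2 rose and 0 fell. That share was near the 4.68% called higher by edgeR over all tested genes, of which 8.43% were called in either direction. Sec61a1, a subunit of the channel through which proteins enter the ER, rose 1.29-fold (log2 0.37, SE 0.10, adjusted p = 0.0494 by edgeR), and Ssr1, a protein of the same translocon, rose 1.32-fold (log2 0.40, SE 0.10, adjusted p = 0.0323). The MitolΔ/Δ and control libraries did not overlap for either gene. Of the 29 targets, 5 were higher without overlap and 2 lower, beside 8.17% and 7.18% of all tested genes. The median of the list was 0.33, beside -0.02 over all genes tested, and 23 of 29 were above 0, beside 47.7%. DESeq2 called 8 higher and 0 lower, beside 1350 higher and 965 lower (14% in either direction) of the 16488 genes it tested. The edgeR count was 0 without MitolΔ/Δ replicate 1, 2 or 3 or control replicate 2 or 3, 1 without control replicate 4, 5 without control replicate 1 and 12 without MitolΔ/Δ replicate 4. Of the 6 targets below 0, Sec61g (-0.50) and Edem2 (-0.24) had groups that did not overlap, Kdelr3 (-0.50) and Dnajb9 (-0.44) had groups that did, and none passed the test. Of 6 genes known to be degraded by IRE1, 5 were tested and 1 was called by edgeR, beside 8.43% of all tested genes. Sparc, a matrix protein, was the gene called, at 27.0 to 37.6 normalized counts in MitolΔ/Δ and 0.898 to 6.59 in control libraries (log2 3.46, adjusted p = 0.00568 by edgeR). Bloc1s1, the most widely described substrate of that decay, was low in both groups, at 11.6 to 24.3 and 17.0 to 43.1 (log2 -0.54, adjusted p = 0.400).

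In the ATF6 arm 0 of 4 genes passed the test by edgeR or by DESeq2, and 1, Atf6, had an unadjusted p under 0.05. Atf6 (chr1:170532026-170696208, minus strand) had normalized counts of 633, 590, 676 and 626 in MitolΔ/Δ and 531, 443, 576 and 495 in control libraries. All 4 MitolΔ/Δ libraries were above all 4 controls, with a narrow margin between 590 and 576. The log2 fold change was 0.29 (95% interval 0.05 to 0.52, adjusted p = 0.115 by edgeR and 0.0622 by DESeq2), and the exact permutation p was 0.0286.

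Atf6b (chr17:34866091-34874056, plus strand) had normalized counts of 613, 530, 656 and 650 in MitolΔ/Δ and 648, 467, 544 and 359 in control libraries. The groups overlapped, control replicate 1 being as high as the MitolΔ/Δ libraries and control replicate 4 the lowest. The log2 fold change was 0.27 (95% interval -0.08 to 0.61, adjusted p = 0.311 by edgeR), and it was 0.13 without control replicate 4 and 0.42 without control replicate 1. The log2 ratio of Atf6 to Atf6b averaged 0.05 in either group, and the groups overlapped.

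Of the ATF6 arm, the proteases had the smallest fold changes. Mbtps1 (chr8:120234415-120285605, minus strand) had 1996, 1860, 1969 and 2187 in MitolΔ/Δ and 2059, 2140, 2041 and 2104 in control libraries. Its log2 fold change was -0.08 with an interval of -0.25 to 0.09, the narrowest of the 10 genes. Mbtps2 (chrX:156318367-156381711, minus strand) had 290, 262, 237 and 281 in MitolΔ/Δ and 278, 292, 205 and 305 in control libraries, with complete overlap. Its log2 fold change was -0.03 (95% interval -0.35 to 0.29), a value whose sign turned on leaving out single libraries.

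S1P and S2P also release other membrane-bound factors, such as the sterol regulators SREBP1 and SREBP2. Of 10 genes of this kind, with the SREBP escort and anchors, 8 were tested, and 4 had an unadjusted p under 0.05. By edgeR 0 were called and by DESeq2 1, beside 8.43% and 14% of all genes tested by each. The median log2 fold change was -0.004. Srebf2 was at 3476 to 4208 in MitolΔ/Δ and 4106 to 5395 in control libraries (log2 -0.33, adjusted p = 0.0584 by edgeR and 0.0353 by DESeq2). Of 15 ATF6 targets, all tested, 0 were called by edgeR and 1 by DESeq2, beside the same 8.43% and 14%. In that list 3 had an unadjusted p under 0.05, and the median was 0.07. Calr, the chaperone calreticulin, had the smallest p of that list, at 3969 to 4470 against 2552 to 3799 (log2 0.38, adjusted p = 0.0572 by edgeR and 0.0174 by DESeq2). Hspa5, the chaperone most often read for this arm, overlapped broadly, at 2335 to 4060 against 1298 to 3518.

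In the PERK arm 0 of 4 genes passed the test by edgeR or by DESeq2, and 0 had an unadjusted p under 0.05. Eif2ak3 (chr6:70821461-70882235, plus strand), the sensor, had 265, 320, 275 and 308 in MitolΔ/Δ and 227, 317, 281 and 297 in control libraries. The log2 fold change was 0.03 (95% interval -0.26 to 0.33), and upper-quartile scaling turned it to -0.03.

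Atf4 (chr15:80139372-80141745, plus strand) had normalized counts of 1060, 1297, 1562 and 1472 in MitolΔ/Δ and 1881, 1525, 1714 and 920 in control libraries. Control replicate 4 was the lowest of the 8 libraries while the other 3 controls included the highest 2. The log2 fold change was -0.18 (95% interval -0.59 to 0.23, adjusted p = 0.589 by edgeR) and ranged from -0.36 without control replicate 4 (adjusted p = 0.169) to -0.08 without MitolΔ/Δ replicate 1 and -0.05 without control replicate 1.

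Ddit3 (chr10:127124268-127132163, plus strand) had 126, 134, 103 and 114 in MitolΔ/Δ and 129, 189, 137 and 125 in control libraries. The groups overlapped, and control replicate 2 was the highest. The log2 fold change was -0.30 (95% interval -0.70 to 0.10, adjusted p = 0.320 by edgeR), and it was -0.15 without control replicate 2.

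Ppp1r15a (chr7:45172340-45175692, minus strand) had 801, 787, 1329 and 1606 in MitolΔ/Δ and 1399, 1505, 1486 and 586 in control libraries. Its MitolΔ/Δ libraries fell into a lower and a higher pair, and control replicate 4 lay far below the other controls. It varied most of the 10 genes, with a coefficient of variation of 35.8% in MitolΔ/Δ and 35.4% in control. The log2 fold change was -0.15 (95% interval -0.78 to 0.48, adjusted p = 0.782 by edgeR), and ranged from -0.39 without control replicate 4 to -0.0089 without MitolΔ/Δ replicate 2.

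**Figure D3:**
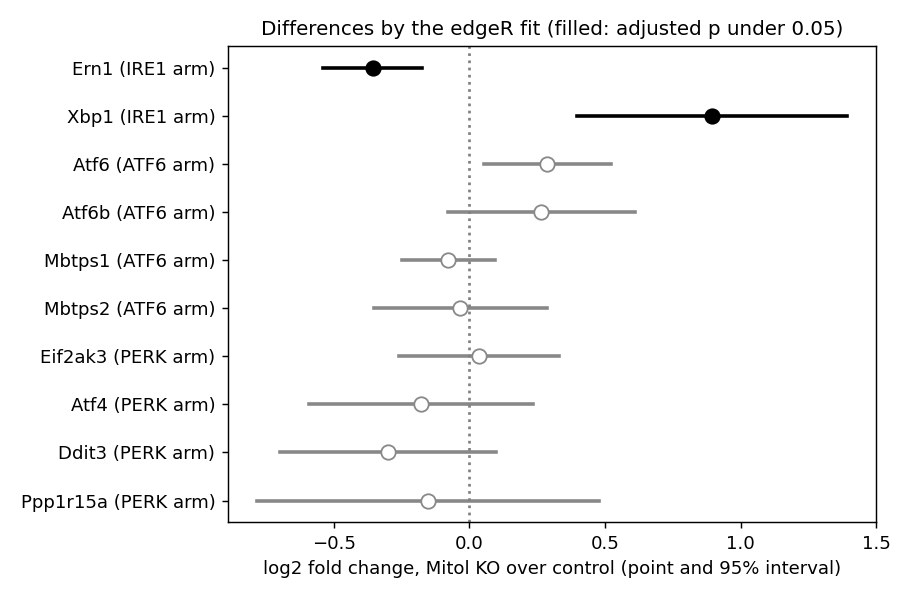
Log2 fold changes of Mitol KO over control (horizontal axis) for the 10 genes, with the 95% interval of the edgeR fit as a line and filled points for an adjusted p under 0.05. Ern1 at -0.36 and Xbp1 at 0.90 are filled, and the interval of Ppp1r15a, -0.78 to 0.48, is the widest.

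The order of libraries in Ppp1r15a was close to that of the immediate early genes, a set of 17 genes such as Fos, Egr1 and Nr4a1 that respond to handling and growth signals within minutes. Their summed normalized counts were 26534, 30451, 37155 and 43802 in MitolΔ/Δ and 47462, 41911, 49035 and 26353 in control libraries. Control replicate 4 and MitolΔ/Δ replicates 1 and 2 were the lowest 3 libraries for this sum, for Ppp1r15a and for Atf4, but Ddit3 did not follow that order. The groups overlapped in the sum, and within the list Fosb and Klf6 fell. The part of this response in the Ppp1r15a and Atf4 values was not tested.

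**Figure D4:**
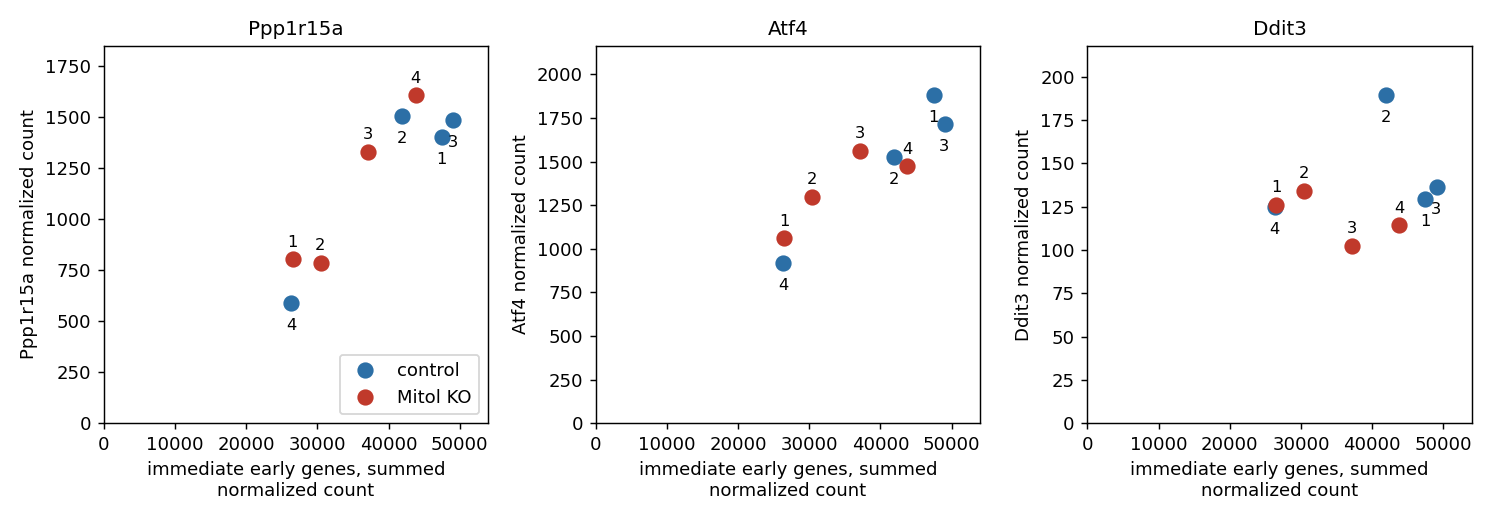
Normalized counts of Ppp1r15a, Atf4 and Ddit3 (vertical axes) against the summed normalized count of 17 immediate early genes (horizontal axes) in each library, numbered by replicate. Control replicate 4 and Mitol KO replicates 1 and 2 sit at the low end for Ppp1r15a and Atf4, whereas Ddit3 peaks in control replicate 2 at 189.

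The promoter of Ppp1r15a holds a letter-perfect cyclic AMP response element (CRE), a site type shared by many stress-responsive and early response genes, and it is shown because no other motif searched was found in these genes. The line gives the 100 bases before its start site in the RefSeq table (GRCm38.p6, chr7:45526269-45526368, minus strand), with the CRE in capitals.
Ppp1r15a promoter: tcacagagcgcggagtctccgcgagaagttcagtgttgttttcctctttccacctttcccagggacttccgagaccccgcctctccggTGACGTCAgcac
The CRE letters were TGACGTCA, a palindrome, and occurred in 1.79% of 32851 mouse promoters of 300 bases. On both strands, the other searches were UPRE (TGACGTGG, which shares its first letters with the CRE, 0.676% of promoters), CARE (TGATGNAA, 3.97%), ERSE (CCAAT and CCACG with 9 bases between, 0.119%) and ERSE-II (ATTGG and CCACG with 1 base between, 0.0365%). Promoters of 9 of the 10 genes were in the table, all but Atf6. None of the 9 held UPRE, CARE, ERSE or ERSE-II in this window, which says only that those letters are not in these 300 bases.

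Around PERK, 15 genes code for the other eIF2 kinases, eIF2 and eIF2B subunits and the phosphatase that GADD34 directs. All 15 were tested, 3 rose and 0 fell, beside 4.68% called higher over all tested genes, and 14 were above 0, beside 47.7%, with a median log2 fold change of 0.33. Eif2b5, the catalytic subunit of the exchange factor that phosphorylated eIF2 blocks, rose 1.30-fold (log2 0.38, adjusted p = 0.0473 by edgeR). The catalytic phosphatase subunits Ppp1cb and Ppp1cc rose 1.28-fold and 1.35-fold (log2 0.36 and 0.44, adjusted p = 0.0279 and 0.0354 by edgeR). Ppp1r15b, which directs the same phosphatase without stress, had 1674, 1682, 1661 and 1409 in MitolΔ/Δ and 1315, 1333, 1344 and 1172 in control libraries. These groups did not overlap (log2 0.30, adjusted p = 0.0565 by edgeR and 0.0164 by DESeq2), whereas the groups of its inducible relative Ppp1r15a did. The count of 3 became 1 under upper-quartile scaling and 6 with DESeq2, 7 without MitolΔ/Δ replicate 4, 1 without control replicate 1 or 3, and 0 without any of the other libraries.

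Of 35 genes known as targets of ATF4 or CHOP, 30 were tested, 5 rose and 0 fell, beside 4.68% called higher over all tested genes. The median log2 fold change was 0.27, and 23 of 30 were above 0, beside 47.7%. The count was 8 with DESeq2, 11 without MitolΔ/Δ replicate 4, 6 without control replicate 1, 2 without MitolΔ/Δ replicate 1, 2 or 3 or control replicate 4, and 1 without control replicate 2 or 3. Vldlr, a lipoprotein receptor, had 333, 539, 807 and 1206 in MitolΔ/Δ and 224, 179, 174 and 201 in control libraries (log2 1.87, SE 0.31, adjusted p = 0.00823 by edgeR). Mthfd2, a mitochondrial folate enzyme, had 253, 395, 165 and 93.1 against 123, 75.5, 57.5 and 39.5 (log2 1.62, SE 0.42, adjusted p = 0.0354 by edgeR). The order of the MitolΔ/Δ libraries was not shared, since replicate 4 was the highest for Vldlr and the lowest for Mthfd2.

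The amino acid transporter Slc7a5 (log2 0.81, adjusted p = 0.0388), the alanyl-tRNA synthetase Aars (0.74, adjusted p = 0.0277) and Bcl2l11, which encodes the death protein BIM (0.61, adjusted p = 0.0212), also rose by edgeR. Asns, the asparagine synthetase that is a standard ATF4 target, missed the threshold by edgeR (log2 0.72, adjusted p = 0.0618) and passed it by DESeq2 (adjusted p = 0.0173). Trib3, a pseudokinase induced by ATF4 with CHOP, was at 39.9, 108, 104 and 197 in MitolΔ/Δ and 214, 200.04, 168 and 205 in control libraries (log2 -0.83, adjusted p = 0.146). Atf3, another factor of this branch, ranged from 0 to 66.7 in MitolΔ/Δ and from 2.69 to 82.9 in control libraries.

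**Figure D5:**
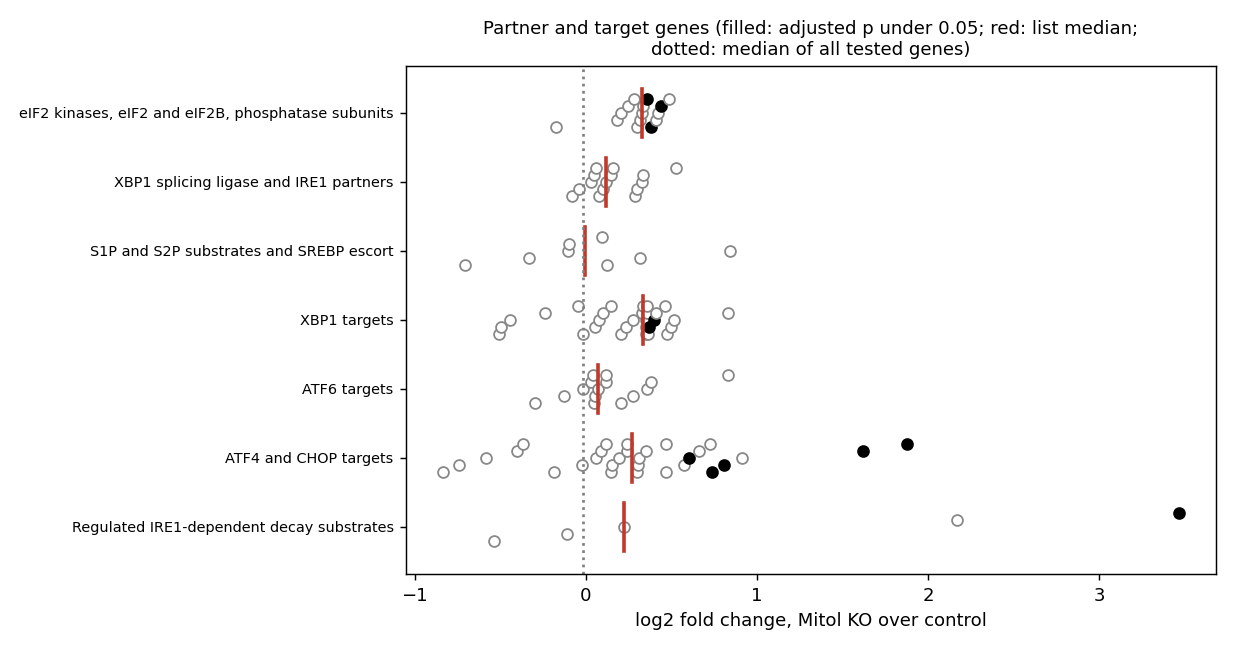
Log2 fold changes of Mitol KO over control (horizontal axis) for each tested gene of 7 lists of partner and target genes, filled where the adjusted p was under 0.05, with the list median in red and the median of all tested genes as a dotted line at -0.02. Filled points are 3 in the eIF2 list, 2 in the XBP1 target list, 5 in the ATF4 and CHOP target list and 1 in the decay list, all to the right of 0.

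The genes whose pattern over the 8 libraries was most like that of each variable or called member were found by the root mean square difference of centred log2 values among 10223 genes. For Xbp1 these were Hspa8 (0.19), Fut8 (0.24) and Fkbp5 (0.24), against a spread of 0.60 in Xbp1 itself. For Ern1 they were Utrn (0.036), Cc2d1a (0.037) and Kmt2c (0.044), against a spread of 0.19 in Ern1. For Ppp1r15a they were Snora31 (0.17), Gm6225 (0.17) and Zc3h12a (0.20), against a spread of 0.52 in Ppp1r15a.

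Annotated exons of 7 of the 10 genes overlap another gene: Xbp1 (Ccdc117), Atf6 (Gm9929), Atf6b (Gm64738), Eif2ak3 (Gm43292), Ddit3 (Mbd6, Mars1 and Gm4189) and Ppp1r15a (Tulp2) on the opposite strand, and Mbtps2 (Yy2) on the same strand. The strand setting of the counting was not given, so reads of such pairs may not have been told apart. Ern1, Mbtps1 and Atf4 had no such neighbour.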

How the data were processed

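RNA-seq counts of 8 HSC libraries were analysed, 4 per group. The raw counts per gene were deposited by the authors, who, per the labels and the methods, aligned 75-base single-end reads to mm39 with STAR, merged alignments with SAMtools and counted with Subread (gene annotation and strand setting are not given in the sources used here). Of 23094 rows, 1029 had no gene symbol (0.335% to 0.467% of each library) and were left out of library sizes and tests. No row summed to less than 11.

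Groups came from the sample labels. Genes were filtered with filterByExpr, scaled by TMM and tested by edgeR 4.0.16 (quasi-likelihood, R 4.3.3) across 16444 genes, with Benjamini-Hochberg adjustment and a threshold of 0.05. TMM scaling was used in the edgeR fits only. For the normalized counts printed and plotted here, each library's raw counts were scaled by its DESeq2 (median-ratio) size factor instead. The authors used DESeq2, here an alternative (1.42.0), beside limma-voom (limma 3.58.1), 2 other scalings, no filter, a replicate block and the omission of each library. No libraries were duplicates by a chi-square comparison. Gene positions and exon lengths came from GRCm39 (the build called mm39) and promoters from the RefSeq table of GRCm38.p6.

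All 10 members were named, with those pathway genes that passed the threshold, 5 comparators (Ppp1r15b, Hspa5, Trib3, Atf3, Ern2), and for Xbp1, Ern1 and Ppp1r15a the 3 most similar genes of mean normalized count of at least 100 (log2 of the count plus 1). Rtcb, Dnajb9, Sec61g, Edem2, Kdelr3, Sdc1, Prtn3, Itgam, S100a8, S100a9, Bloc1s1, Srebf2, Calr and Asns were named after their values were seen. So were Cd79b, Prdm1, Irf4, Cd4 and Klrb1c. The members and lists were chosen with earlier results of these data known. Some marker genes are not reported here.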

Additional observations from a re-analysis of the deposited data

Results flagged for a closer look

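Ppp1r15a, the gene of GADD34, was low in 1 control library. Control replicate 4 had a normalized count of 586, beside 1399, 1505 and 1486 in the other 3, and its gap to the nearest was 0.885 of the whole range, above Dixon's 95% critical value for 4 samples. In all, 20 groups of 4 (10 genes in both conditions) were examined in this way, and chance flags about 1 in 20. The same library was the lowest of the 8 for Xbp1 (603) and Atf4 (920), and for the summed immediate early genes (26353). Without it the log2 fold change of Ppp1r15a was -0.39 (adjusted p = 0.353 by edgeR) in place of -0.15, while it was -0.013 without MitolΔ/Δ replicate 1, -0.0089 without MitolΔ/Δ replicate 2 and -0.047 without control replicate 2.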

How the results depend on the processing

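Over all genes, DESeq2 called 2315 against 1386 by edgeR, and leaving out single libraries gave 359 (without control replicate 2) to 2501 (without MitolΔ/Δ replicate 4). Upper-quartile scaling moved the median of all genes to -0.08 and the split to 594 higher and 845 lower, against 770 and 616. Ern1 and Xbp1 were called in each of the 6 alternative fits to all 8 libraries (adjusted p 0.00299 to 0.0342 and 0.00167 to 0.0416), but in 2 and 3 of the 8 fits without a library (log2 -0.39 to -0.31 and 0.72 to 1.10). The other 8 members were called in none of these. Members called ranged from 0 to 2 without a library. Eif2ak3 turned to -0.028 under upper-quartile scaling, to -0.0060 without MitolΔ/Δ replicate 2 and to -0.038 without control replicate 1 (range without a library -0.038 to 0.098). Mbtps2 turned to 0.036 without MitolΔ/Δ replicate 3 or control replicate 4 and to 0.0063 without control replicate 2 (range -0.14 to 0.036). The cause was not tested.

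Genes called without a library were 0 to 7 in the eIF2 list, 0 to 2 among IRE1 partners, 0 to 2 among S1P and S2P substrates, 0 to 12 among XBP1 targets, 0 to 3 among ATF6 targets, 1 to 11 among ATF4 and CHOP targets and 1 to 1 among decay substrates, the high ends without MitolΔ/Δ replicate 4. DESeq2 gave 6, 1, 1, 8, 1, 8 and 2 in that order, beside 14% of all genes it tested. Upper-quartile scaling gave 1 in the eIF2 list and 1 among S1P and S2P substrates, and limma-voom 1 among ATF6 targets.

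The replicate block gave 957 higher and 695 lower genes, 7 XBP1 targets, and 1, 1 and 2 for S1P and S2P substrates, ATF6 targets and decay substrates, and it changed no call among the 10 members (Ern1 -0.36, Xbp1 0.91). Same-numbered libraries deviated together only weakly (r from -0.12 to 0.099), and not every library correlated best with its own number. Whether same-numbered libraries share more than that number cannot be told from these values and was not tested.

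With the canonical transcript's length (chosen after seeing the data), levels per kilobase were 347 for Ern1, 712 for Xbp1, 75.8 for Atf6, 214 for Atf6b, 426 for Mbtps1, 104 for Mbtps2, 62.8 for Eif2ak3, 821 for Atf4 and 122 for Ddit3. A window starting 150 bases before the start site held UPRE in 0.530%, CARE in 2.75% and CRE in 1.60% of promoters. Depth limits Ddit3 most, at 98 to 178 raw counts per library.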
